A study of Mus musculus with 16 samples.

Results

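The genes described here are 46 mouse genes through which neurons admit, expel, store and sense calcium. They were listed by symbol for their function, they made up 46 of the 55404 genes measured, and all 46 were found by symbol and passed the filter on low values. By place of action, 25 belonged to the plasma membrane, 11 to the endoplasmic reticulum store or its refilling, 2 to mitochondria and 8 to cytosolic calcium sensors. Calmodulin-dependent kinases were not among them.

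In neurons, voltage-gated channels let calcium in when the membrane depolarises, and the rise sets off transmitter release, enzyme activity and changes in transcription. Pumps and sodium-calcium exchangers of the plasma membrane carry the calcium out again, while store pumps load it into the endoplasmic reticulum, from which ryanodine and inositol trisphosphate receptors release it. Mitochondria take up part of the load through a uniporter, and calmodulin and related proteins bind calcium and hand the signal on to enzymes such as the phosphatase calcineurin.

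RNA of whole brains was sequenced in 8 mice homozygous for the Tecpr2 L1152fs knock-in, named Tecpr2 ki/ki, and in 8 wild type mice, named wt/wt, all untreated males of 5 months. The knock-in was made by CRISPR/Cas9 in C57BL/6 J zygotes and shifts the reading frame near the end of Tecpr2, a gene linked to autophagy, endolysosomes and export from the endoplasmic reticulum, in imitation of an allele of a human sensory and autonomic neuropathy. The alteration was present in every cell, and the study placed axonal swellings of these mice in the medulla, whereas the libraries here averaged all regions and cell types of the brain. The deposited values were normalised and rounded to whole numbers, and a value below means that number per gene and mouse.

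As a check of the labels, Tecpr2 itself ran from 274 to 320 in ki/ki mice and from 928 to 1002 in wt/wt mice, so that every mouse matched its genotype. The 16 totals lay between 11964284 and 12252324, the sequencing depth that the rounding of low values implies lay between 9.23 and 15.39 megareads on genes, and no library stood apart from the rest, with median correlations to the others between 0.9948 and 0.996. Defining neuronal markers were present in all mice, and none of the markers of the 14 cell type and region lists was at 0 throughout. Since these are bulk samples, fewer cells of a type and less RNA per cell cannot be told apart.

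The question put to the 46 genes was whether their transcripts differed between Tecpr2 ki/ki and wt/wt brains. No member passed an adjusted p of 0.1 (limma on log2(value + 1) Benjamini-Hochberg adjusted over the 23244 genes tested), a threshold that 0.133% of all tested genes passed. At an unadjusted limma p under 0.01, 2 members were lower in ki/ki mice, the store pump gene Atp2a2 and the channel subunit gene Cacna2d3, and 0 were higher, against 0.701% and 0.856% of all genes. At an unadjusted p under 0.05, 7 members were lower (15.2%) and 0 were higher, against 3.01% and 3.07% of all genes. That count moved with some scalings of the libraries. At equal library totals 6 members were lower and 0 were higher at this level, and after quantile normalization 2 were lower and 1 was higher. When each library was centred on 10 pan-neuronal marker genes, an alternative chosen after the data had been seen, 0 were lower and 5 were higher. That centring raised the log2 fold change of every gene by the same 0.029, the amount by which these markers were lower in ki/ki mice. All genes moved with it: at an unadjusted limma p under 0.01, 445 were then higher and 50 lower, against 199 and 163 before.

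The differences were small throughout. Log2 fold changes of value + 1 (ki/ki minus wt/wt, as in all that follows) ran from -0.09 for Cacna2d3 to 0.05 for Atp2a3. Of the 46 members, 36 had a 95% confidence interval that lay wholly within 0.1 of 0 on the log2 scale, and 39 had an interval that held 0. The widest bounds were -0.16 and 0.13. In no member were the 8 ki/ki values all below or all above the 8 wt/wt values, which was the case in 0.086% of all genes. More members were lower than higher, 29 against 17 or 63.0% lower, with 50.5% lower among all genes, and the median was -0.014 for the members and -0.000981 for all genes. This balance also depended on scaling, with 26 lower and 20 higher at equal library totals, 25 and 21 after quantile normalization, and 15 and 31 after centring on the pan-neuronal markers. Among all genes, 48.3%, 50.7% and 34.0% were lower in these settings.

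**Figure D1:**
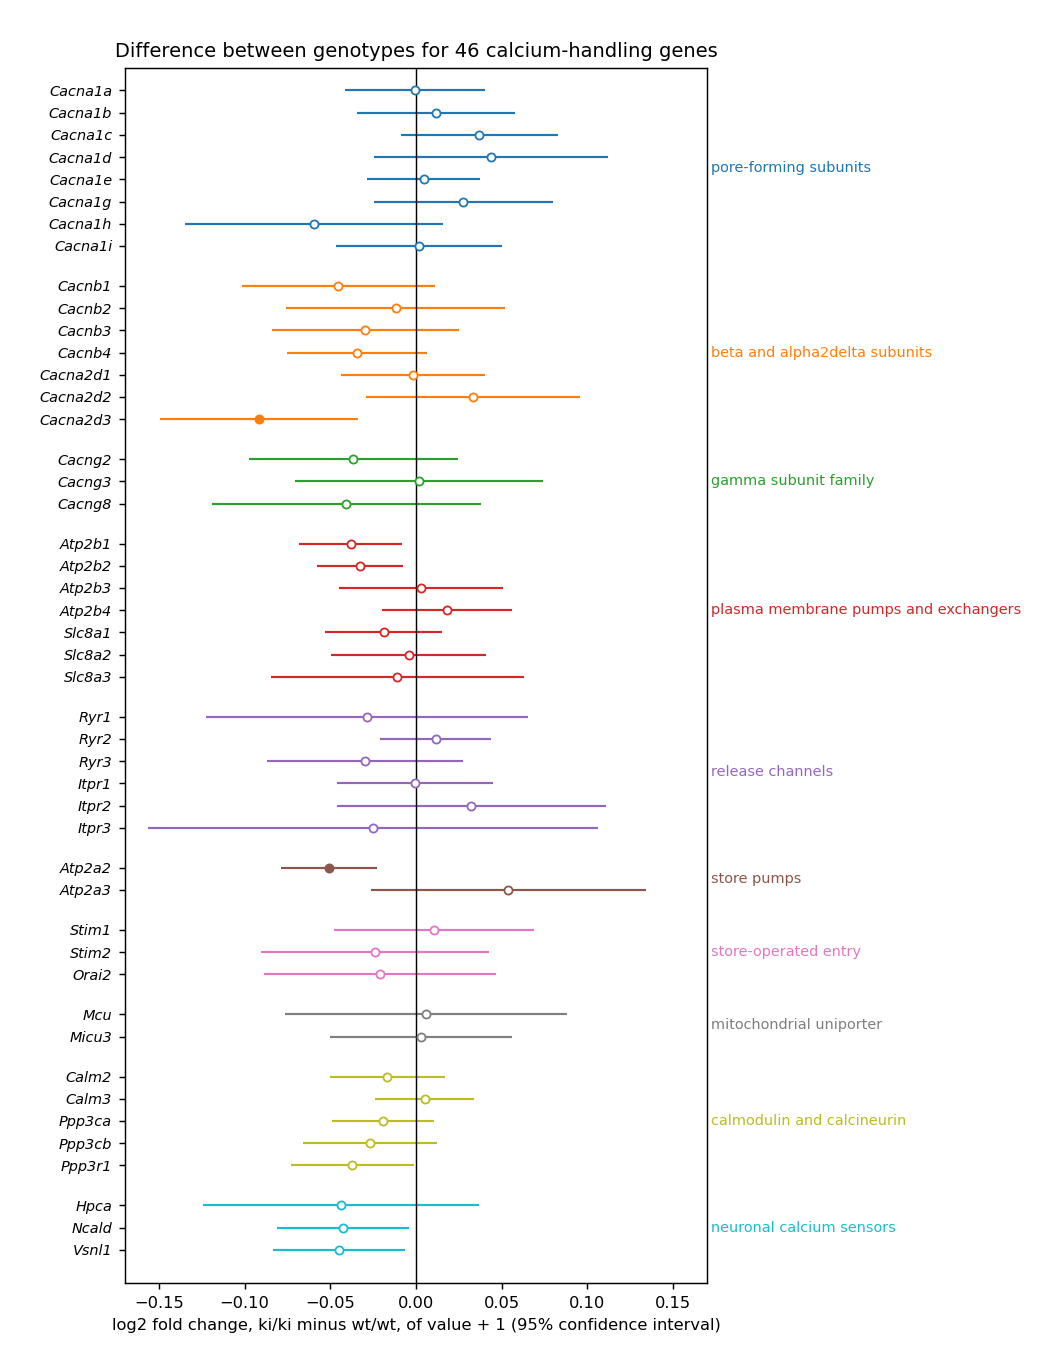
Log2 fold change (ki/ki minus wt/wt) of each of the 46 genes with its 95% confidence interval, ordered and coloured by role. Filled points mark the 2 genes with an unadjusted limma p under 0.01, Atp2a2 and Cacna2d3, and 39 of the 46 intervals hold 0.

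Of the pore-forming subunits of voltage-gated channels, which make the pore and the voltage sensor, 6 of 8 were higher and 2 were lower in ki/ki mice, none at an unadjusted p under 0.05, with a median log2 fold change of 0.01. The highest level per kilobase of exon was that of Cacna1a, the P/Q-type channel of fast transmitter release, at 276 ± 7.90 (SD, n = 16 mice). Its values ran from 3077 to 3234 (median 3149.5) in ki/ki mice and from 2972 to 3320 (median 3162) in wt/wt mice, and the log2 fold change was -0.00 with an SE of 0.0205. The ki/ki values lay within the range of the wt/wt values, and the sign turned at equal library totals.

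The largest difference towards higher values was that of Cacna1d, an L-type channel that opens at fairly negative potentials. Its values were 978 to 1137 (median 1099) in ki/ki mice and 928 to 1131 (median 1042) in wt/wt mice. Between genotypes the log2 fold change of 0.04 (SE 0.0339) had an adjusted limma p of 0.903, and the ranges overlapped over nearly their whole length. Cacna1h, a T-type channel that opens near the resting potential, differed most in the other direction. It ran from 543 to 666 (median 571) in ki/ki mice and from 576 to 643 (median 612) in wt/wt mice, with a log2 fold change of -0.06 (SE 0.0376) and an adjusted limma p of 0.890. In 4 ki/ki mice it was below every wt/wt mouse, while the highest value of all was also that of a ki/ki mouse.

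The other channels followed Cacna1a in level. Per kilobase, the R-type gene Cacna1e stood at 254 ± 5.90 and the N-type gene Cacna1b at 196 ± 5.58. The T-type genes Cacna1g and Cacna1i came next at 168 ± 6.94 and 164 ± 4.35, a difference smaller than their spread between mice. The L-type genes Cacna1c and Cacna1d were at 105 ± 3.55 and 84.0 ± 4.89, and Cacna1h was lowest at 61.2 ± 3.60. Within the high-voltage-activated genes, Cacna1a made up 30.0% ± 0.532 of the summed level per kilobase in ki/ki mice and 30.3% ± 0.834 in wt/wt mice (SD, n = 8 each), a difference smaller than either spread. Within the T-type genes, Cacna1g held 43.1% ± 0.774 against 42.4% ± 1.36.

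**Figure D2:**
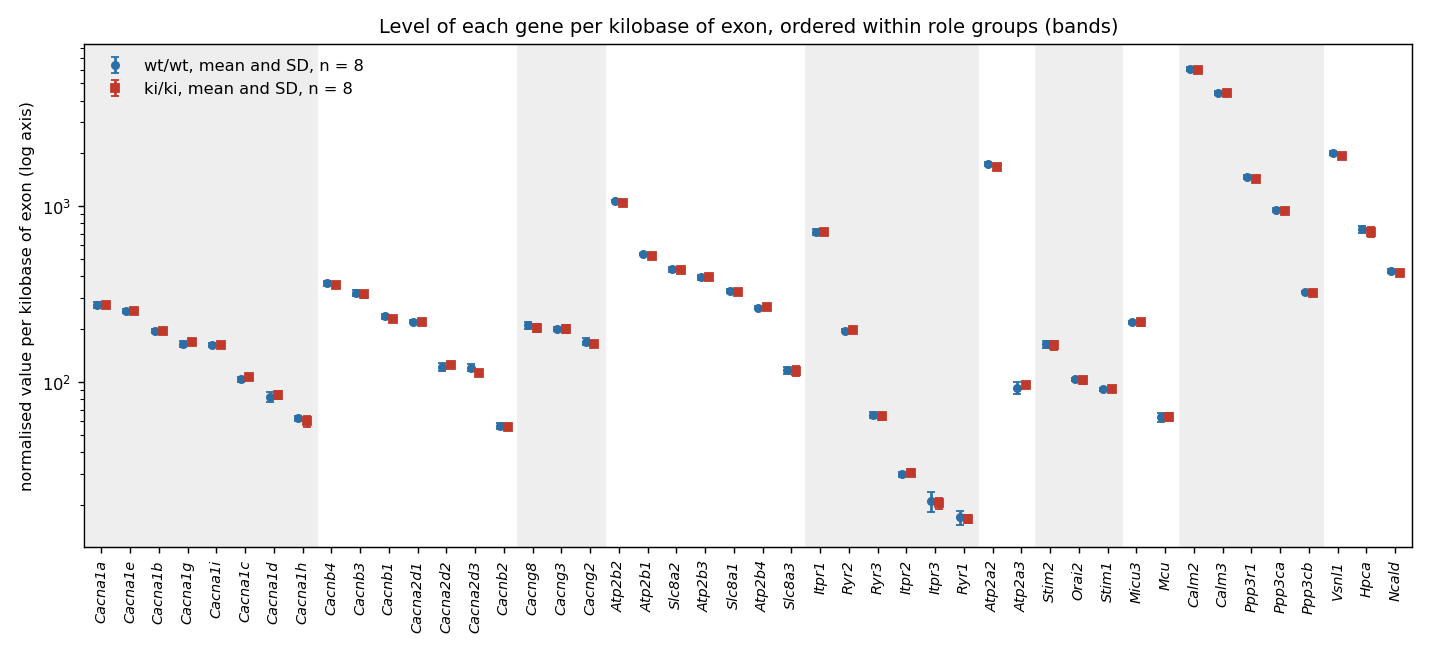
Level of each of the 46 genes as normalised value per kilobase of exon on a log axis, mean and SD of 8 mice for each genotype, with role groups in alternating bands and genes ordered by level within them. Calm2 is highest at 5999 and Ryr1 lowest at 16.9, and the means of the genotypes differ by little on this scale.

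Auxiliary subunits carry the channels to the membrane and set how they gate, and here 6 of 7 were lower in ki/ki mice. Their median log2 fold change of -0.03 came to -0.00 after centring on the pan-neuronal markers, which adds the same 0.029 to every gene here and below. The difference was largest for Cacna2d3 (ENSMUSG00000021991, chr14:28904943-29721864 of GRCm38, minus strand), an extracellular alpha2delta subunit that also takes part in synapse formation and pain processing. Its values ran from 967 to 1009 (median 994) in ki/ki mice and from 1004 to 1133 (median 1031.5) in wt/wt mice. All 8 ki/ki values were under the wt/wt median, 6 were under every wt/wt value, and 7 of the 8 wt/wt values were above every ki/ki value.

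For Cacna2d3 the mean was 992 ± 13.7 in ki/ki mice and 1058 ± 50.8 in wt/wt mice (SD, n = 8 each). Counting reads would by itself give this gene a coefficient of variation of 3.13%, and the ki/ki values lay closer together than that. The log2 fold change was -0.09 (SE 0.0289), which is -6.15% with an interval from -9.82% to -2.32%. The unadjusted limma p was 0.00232, the adjusted p 0.432, and the exact permutation test over all splits of the mice gave an unadjusted two-sided p of 0.000466. Without wt/wt mouse 8 the unadjusted limma p was 0.0107, and after centring on the pan-neuronal markers the log2 fold change was -0.06 with an unadjusted limma p of 0.0566. The share of Cacna2d3 in the summed level per kilobase of the alpha2delta genes was 24.8% ± 0.558 in ki/ki mice and 26.1% ± 0.945 in wt/wt mice.

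The other alpha2delta genes had intervals that held 0. Cacna2d2, which is abundant in cerebellar Purkinje cells, was the only auxiliary member with a higher mean in ki/ki mice, with values from 936 to 1055 (median 1000) against 897 to 1073 (median 974) in wt/wt mice, which gave a log2 fold change of 0.03 (SE 0.0312) and an adjusted limma p of 0.924. Cacna2d1, the main target of gabapentin, had a log2 fold change of -0.00 (SE 0.0210) whose sign turned at equal library totals.

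The cytosolic beta subunits were led in level by Cacnb4, at 361 ± 11.4 per kilobase, a gene whose loss causes ataxia and seizures in mice. It ran from 3044 to 3359 (median 3212) in ki/ki mice and from 3145 to 3402 (median 3288.5) in wt/wt mice, with a log2 fold change of -0.03 (SE 0.0205) and an adjusted limma p of 0.877. In 3 ki/ki mice it was below all wt/wt mice. An antisense gene overlaps 1433 of the 8963 exon bases of Cacnb4 in the GENCODE annotation, and whether reads were counted by strand is not given in the sources used here. Cacnb1, Cacnb2 and Cacnb3 had log2 fold changes of -0.05, -0.01 and -0.03, all with intervals that held 0, and each held the same share of the beta subunit genes in both genotypes to within its SD.

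The gamma subunit family members on the list mainly serve AMPA-type glutamate receptors, which they bring to the synapse. Cacng8 was highest per kilobase at 208 ± 10.6 and differed from Cacng3, at 201 ± 8.20, by less than the spread between mice. Its values ran from 455 to 535 (median 479) in ki/ki mice and from 449 to 519 (median 502) in wt/wt mice, which gave a log2 fold change of -0.04 (SE 0.0392) with an adjusted limma p of 0.929. Of the ki/ki values 7 were under the wt/wt median, and the highest value was again that of a ki/ki mouse. Cacng3 ran from 505 to 609 (median 558.5) and from 538 to 588 (median 556.5), with a log2 fold change of 0.00 (SE 0.0363), and Cacng2, known as stargazin, had -0.04 (SE 0.0306).

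Extrusion from the cell was represented by 4 pumps and 3 exchangers, of which 5 were lower and 2 higher in ki/ki mice, with a median log2 fold change of -0.01 that turned to 0.02 after centring on the pan-neuronal markers. The pumps belong to the same enzyme class as the store pumps: each forms a phosphorylated intermediate at an aspartate that is conserved in all of them. Of all 31-base words in their exons, Atp2b2 shares 0.331%, Atp2b1 2.00% and Atp2a2 4.49% with any other gene, the last mainly with the predicted gene Gm30970.

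Atp2b2 (chr6:113743831-114042613 of GRCm38, minus strand), the fast plasma membrane pump of cerebellar neurons and hair cells, had the highest level of this group at 1060 ± 19.8 per kilobase. It ran from 12964 to 13461 (median 13176) in ki/ki mice and from 13221 to 13906 (median 13475) in wt/wt mice. All ki/ki values were under the wt/wt median, and 4 were under every wt/wt value. The means were 13210 ± 178 and 13514 ± 222 (SD, n = 8 each), and the log2 fold change was -0.03 (SE 0.0124) with an unadjusted limma p of 0.0108, an adjusted p of 0.641 and an exact permutation p of 0.00886.

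Atp2b1, the housekeeping pump that is present in nearly all cells, differed by a similar amount at a lower level per kilobase, 530 ± 12.9. Its values were 7660 to 8242 (median 8009.5) in ki/ki mice and 7980 to 8403 (median 8176) in wt/wt mice, and 7 of 8 ki/ki mice were under the wt/wt median. The log2 fold change was -0.04 (SE 0.0151) with an unadjusted limma p of 0.0141, an adjusted p of 0.671 and an exact permutation p of 0.0255. After centring on the pan-neuronal markers, the log2 fold changes of Atp2b2 and Atp2b1 came to -0.00 and -0.01.

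The remaining members of the group had intervals that held 0. Atp2b4, which is found in neurons and in smooth muscle, was the member with the largest difference towards higher values here, from 3203 to 3389 (median 3301.5) in ki/ki mice and from 3142 to 3321 (median 3267.5) in wt/wt mice, with a log2 fold change of 0.02 (SE 0.0190) and an adjusted limma p of 0.933. Atp2b3 had 0.00 (SE 0.0241). Among the exchangers, which trade calcium for sodium, Slc8a2 was highest per kilobase at 438 ± 14.1, followed by Slc8a1 at 328 ± 8.68 and Slc8a3 at 117 ± 6.34. Their log2 fold changes were -0.00, -0.02 and -0.01, and all 3 intervals held 0. Atp2b2 made up 46.8% ± 0.368 of the plasma membrane pump level per kilobase in ki/ki mice and 47.2% ± 0.464 in wt/wt mice.

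The store was represented by release channels, pumps and the entry machinery that refills it. Among the 6 release channels, 4 were lower and 2 higher in ki/ki mice, none at an unadjusted p under 0.05, with a median of -0.01. Itpr1, the inositol trisphosphate receptor that is most abundant in Purkinje cells, was by far the highest at 717 ± 22.2 per kilobase and made up 93.3% ± 0.190 of its family in ki/ki mice and 93.4% ± 0.216 in wt/wt mice. Its values ran from 12433 to 13457 (median 13212) in ki/ki mice and from 12208 to 13656 (median 13264) in wt/wt mice. Between genotypes the log2 fold change was -0.00 (SE 0.0217) with an adjusted limma p of 0.999, and the ki/ki values lay inside the range of the wt/wt values.

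The largest differences among release channels were those of Itpr2 and Ryr3. Itpr2, the receptor typical of astrocytes, ran from 430 to 493 (median 452.5) in ki/ki mice and from 412 to 469 (median 446) in wt/wt mice, which gave a log2 fold change of 0.03 (SE 0.0393) with an adjusted limma p of 0.948. The ryanodine receptor gene Ryr3, which is found mainly in hippocampus and striatum, ran from 1145 to 1306 (median 1206.5) and from 1163 to 1319 (median 1239), which gave a log2 fold change of -0.03 (SE 0.0287) with an adjusted limma p of 0.928. In both genes the ranges of the genotypes overlapped over most of their length. Ryr2, the main ryanodine receptor of heart and brain, held 71.0% ± 0.580 of its family's level per kilobase in ki/ki mice and 70.4% ± 0.662 in wt/wt mice, and Ryr1, the receptor of skeletal muscle, had the lowest level of all members at 16.9 ± 1.24 per kilobase. Itpr3 stood next to it at 20.8 ± 2.16.

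The smallest p-value of all members belonged to Atp2a2 (ENSMUSG00000029467, chr5:122453513-122502225 of GRCm38, minus strand), the pump that loads the endoplasmic reticulum with calcium in neurons, glia and heart. Its values ran from 9917 to 10414 (median 10305) in ki/ki mice and from 10270 to 10926 (median 10695) in wt/wt mice. Every ki/ki mouse was under the wt/wt median, 3 were under every wt/wt mouse, and 5 wt/wt mice were above every ki/ki mouse, so that the ranges overlapped only between 10270 and 10414.

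The means of Atp2a2 were 10242 ± 181 in ki/ki mice and 10610 ± 246 in wt/wt mice (SD, n = 8 each), and its log2 fold change was -0.05 (SE 0.0141), which is -3.46% with an interval from -5.33% to -1.56%. The unadjusted limma p was 0.000612, the adjusted p 0.225 and the exact permutation p 0.00637. Over the 23 alternatives in processing the adjusted limma p lay between 0.121 and 0.781. After centring on the pan-neuronal markers, the log2 fold change was -0.02 with an unadjusted limma p of 0.175.

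Atp2a3, the other store pump and a gene known for its abundance in Purkinje cells, had the largest fold change of all members towards higher values. It ran from 488 to 532 (median 504.5) in ki/ki mice and from 430 to 533 (median 506) in wt/wt mice, with a log2 fold change of 0.05 (SE 0.0402) and an adjusted limma p of 0.902. The medians lay in the opposite order to the means, 511 ± 16.6 against 493 ± 37.0, since 2 wt/wt mice were far below the rest at 430 and 446. Atp2a2 exceeded Atp2a3 in level per kilobase, 1715 ± 46.4 against 95.1 ± 5.52, and made up 94.6% ± 0.140 of both in ki/ki mice and 94.9% ± 0.367 in wt/wt mice.

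**Figure D3:**
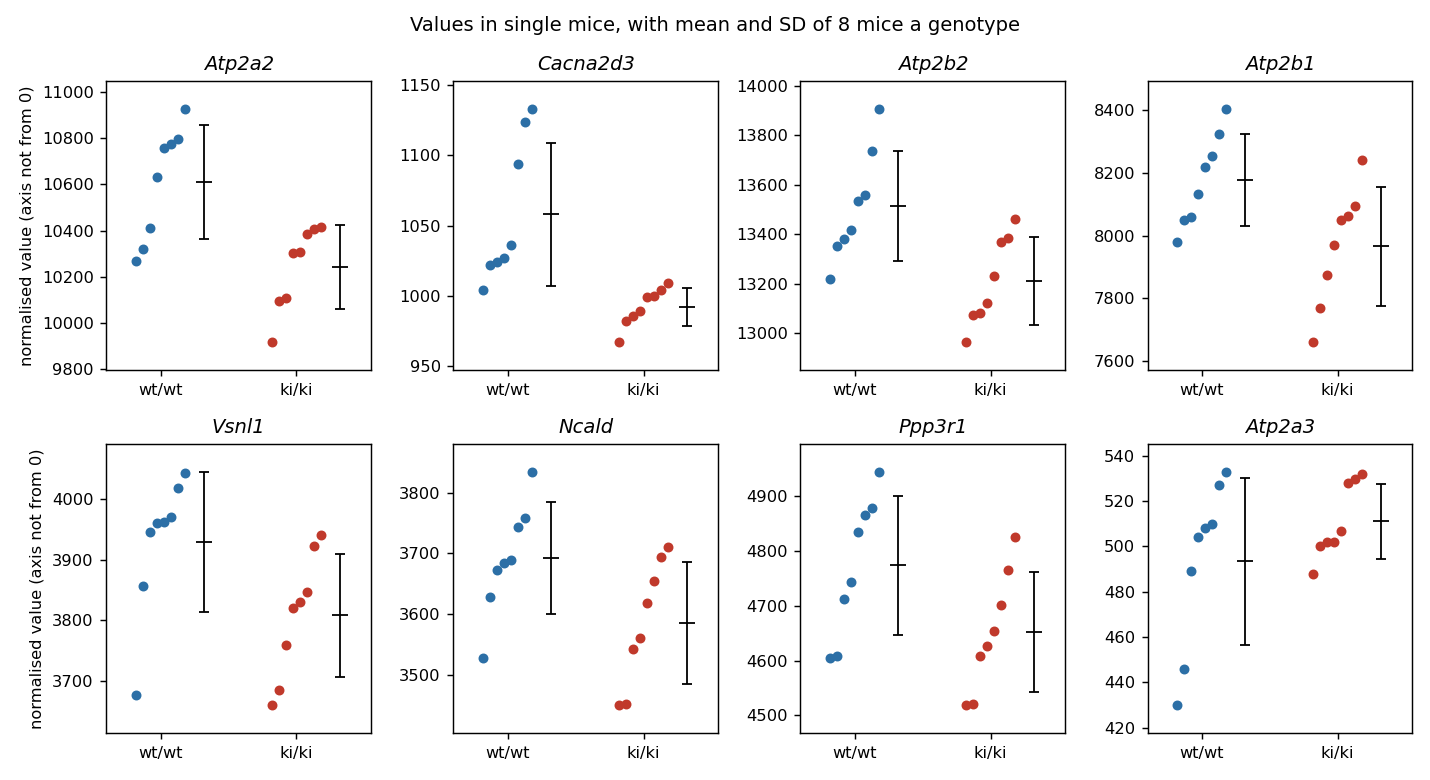
Normalised values in the 16 single mice for the 7 genes with an unadjusted limma p under 0.05 and for Atp2a3, which had the largest fold change towards higher values. Points are mice in order of value, bars are mean and SD of 8 mice, and the axes do not start at 0. In none of the 8 genes are the genotypes without overlap.

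Store-operated entry lets calcium in from outside once the store runs low: Stim proteins sense the store and open Orai channels. Stim2, the neuronal sensor, was highest per kilobase at 164 ± 8.34, with 104 ± 3.59 for Orai2 and 91.5 ± 2.91 for Stim1. Stim2 ran from 770 to 918 (median 824) in ki/ki mice and from 789 to 886 (median 855) in wt/wt mice, which gave a log2 fold change of -0.02 (SE 0.0333) with an adjusted limma p of 0.958. Stim1 ran from 885 to 1009 (median 954.5) and from 916 to 974 (median 945.5), which gave a log2 fold change of 0.01 (SE 0.0293). For both genes the ki/ki values spread beyond the wt/wt values at either end. Orai2 had -0.02 (SE 0.0339), with 4 ki/ki mice below every wt/wt mouse and the highest value in a ki/ki mouse.

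Both mitochondrial genes lay near 0. Micu3, a neuronal regulator of the uniporter, stood at 220 ± 7.32 per kilobase and ran from 1267 to 1429 (median 1353.5) in ki/ki mice and from 1310 to 1383 (median 1349) in wt/wt mice, which gave a log2 fold change of 0.00 (SE 0.0265). Mcu, the pore of the uniporter, stood at 63.6 ± 3.36 per kilobase and ran from 412 to 476 (median 437.5) and from 406 to 472 (median 442), which gave a log2 fold change of 0.01 (SE 0.0413). Their adjusted limma p-values were 0.994 and 0.992.

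Of the 8 sensor genes, 7 were lower in ki/ki mice, with a median log2 fold change of -0.03, and after centring on the pan-neuronal markers 4 were lower and 4 were higher. Calmodulin had the highest levels of all members, 5999 ± 173 per kilobase for Calm2 and 4414 ± 100 for Calm3. Both genes encode the same protein of 149 codons, and their coding sequences of 447 bases differ at 78 positions (82.6% identical), so that coding reads can be told apart by silent changes alone. The first calcium-binding loop is shown here because it makes this visible, with 48 bases of each gene (GENCODE transcripts of GRCm38, sense strand, 5′ to 3′) and capitals at the 9 positions that differ.
Calm2: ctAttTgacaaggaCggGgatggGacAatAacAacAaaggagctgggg
Calm3: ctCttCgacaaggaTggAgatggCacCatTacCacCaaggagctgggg
Of the 31-base words of Calm2, 18.1% also occur in another gene, mainly the pseudogene Gm7308, and the value of Calm2 is uncertain to that extent.

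Calm2 ran from 8280 to 9046 (median 8764.5) in ki/ki mice and from 8478 to 9272 (median 8880.5) in wt/wt mice, which gave a log2 fold change of -0.02 (SE 0.0168) with an adjusted limma p of 0.931. Calm3, the only sensor with a higher mean in ki/ki mice, ran from 10528 to 10913 (median 10706) and from 10186 to 11103 (median 10690), which gave a log2 fold change of 0.01 (SE 0.0145) that turned negative after quantile normalization. Of the level per kilobase of Calm2 and Calm3 together, Calm2 made up 57.4% ± 0.58 in ki/ki mice and 57.8% ± 0.733 in wt/wt mice (SD, n = 8 each), a difference smaller than either spread.

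Calcineurin is a phosphatase of a catalytic and a regulatory subunit that calmodulin switches on. Its regulatory subunit gene Ppp3r1 ran from 4519 to 4825 (median 4640) in ki/ki mice and from 4604 to 4945 (median 4788.5) in wt/wt mice, and 7 of 8 ki/ki mice were under the wt/wt median. The log2 fold change was -0.04 (SE 0.0179) with an unadjusted limma p of 0.0420, an adjusted p of 0.820 and an exact permutation p of 0.0631. A gene on the same strand, Wdr92, overlaps 14.3% of its exon sequence, so this value is uncertain too. The catalytic subunit genes Ppp3ca and Ppp3cb had log2 fold changes of -0.02 (SE 0.0149) and -0.03 (SE 0.0197), and Ppp3ca made up 74.4% ± 0.403 of their level per kilobase in ki/ki mice and 74.3% ± 0.489 in wt/wt mice.

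The neuronal calcium sensor proteins are small and carry a fatty acid that lets them move to membranes when calcium binds. All 3 on the list were lower in ki/ki mice by a similar amount, and they stayed lower at equal totals, after quantile normalization and relative to the pan-neuronal markers, where their median log2 fold change went from -0.04 to -0.01. Vsnl1, visinin-like protein of cortex and hippocampus, was highest at 1978 ± 62.7 per kilobase. Its values ran from 3660 to 3941 (median 3826) in ki/ki mice and from 3676 to 4044 (median 3961) in wt/wt mice. Every ki/ki value was under the wt/wt median and 6 wt/wt values were above every ki/ki value, while the lowest wt/wt mouse lay near the bottom of the ki/ki range.

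For Vsnl1 the log2 fold change was -0.04 (SE 0.0194) with an unadjusted limma p of 0.0232, an adjusted p of 0.762 and an exact permutation p of 0.0496. Ncald, neurocalcin, ran from 3450 to 3711 (median 3589) in ki/ki mice and from 3527 to 3835 (median 3687) in wt/wt mice, which gave a log2 fold change of -0.04 (SE 0.0194) with an unadjusted limma p of 0.0315, an adjusted p of 0.784 and an exact permutation p of 0.0458. Hpca, hippocalcin, which is most abundant in hippocampal pyramidal cells, ran from 1908 to 2258 (median 2116) and from 1963 to 2291 (median 2166), which gave a log2 fold change of -0.04 (SE 0.0383) with an adjusted limma p of 0.918. Its interval was wider than those of Vsnl1 and Ncald and held 0.

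By place of action, the median log2 fold change was -0.00 over the 25 plasma membrane genes (10 higher, 15 lower), -0.02 over the 11 store genes (4 higher, 7 lower), 0.00 over the 2 mitochondrial genes (both higher) and -0.03 over the 8 sensors (1 higher, 7 lower). After centring on the pan-neuronal markers, 16 plasma membrane and 9 store genes were higher, and 9 and 2 were lower. The 7 members with an unadjusted p under 0.05 were 3 plasma membrane genes, 1 store gene and 3 sensors. Whether these groups differ from each other was not tested.

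All 14 marker lists of cells and regions were compared in the same way. The mean log2 value of each list had an exact permutation test, unadjusted. Their part in the values above was not tested. Striatal markers were lower in ki/ki mice in 9 of 9 genes (median log2 fold change -0.12, summed values 6445 to 6890 against 6835 to 7333 in wt/wt mice, exact p 0.000466) and cortical markers in 8 of 8 (median -0.05, sums 9227 to 9539 against 9426 to 9947, exact p 0.0172). Microglial markers were higher in 13 of 14 (median 0.27, sums 3492 to 3784 against 2968 to 3323) and astrocyte markers in 8 of 10 (median 0.05, sums 59210 to 61562 against 55642 to 59130), both with an exact p of 0.000155, the smallest that these mice can give. The study had reported some of these markers as higher in the same libraries: C1qa, C1qb, C1qc, Cd68 and Trem2 of microglia, and Gfap of astrocytes. The tests of both lists are therefore not independent of that report. For 3 further lists the sums overlapped and the exact p missed 0.05. Pan-neuronal markers were lower in 9 of 10 genes (median -0.04, sums 59904 to 62504 against 59915 to 64410, exact p 0.0679). Purkinje cell markers were higher in 5 of 8 (median 0.06, sums 4240 to 4867 against 4233 to 5064, exact p 0.0505), and the score differed by 0.09, beside the 0.05 of Atp2a3. The 5 caudal brainstem markers that passed the filter, of 10 listed, all had a higher mean (median 0.27). The sums, 373 to 551 against 340 to 510, and the exact p of 0.0763 were taken over all 10. The 5 below the filter therefore count in that p as much as the others. In the remaining lists the exact p was 0.16 for choroid plexus, 0.425 for oligodendrocytes, 0.449 for their precursors and 0.519 for endothelial and mural cells. It was 0.78 for cerebellar granule cells, 0.787 for hippocampus and 0.837 for thalamus. The members with an unadjusted p under 0.05 had log2 fold changes between -0.09 and -0.03, which includes the median of the pan-neuronal markers.

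Other genes of calcium handling were taken from a second list. Of 81 further genes, 80 were found and 76 passed the filter, 33 of them higher and 43 lower in ki/ki mice, with a median log2 fold change of -0.0068. None passed an adjusted limma p of 0.1 or an unadjusted p of 0.01. At an unadjusted p under 0.05, 2 were higher (Tpcn1 and Calml4) and 2 were lower (Hpcal4 and Letm1), named here after their values had been seen, and with 3.07% and 3.01% of all genes past this level the count is near the background. Of the 21 tested genes for other store channels, entry proteins and luminal buffers, 14 were lower and 7 were higher, none at an unadjusted p under 0.05. The 25 other sensors, calcineurin genes and buffers leaned the other way, with 15 higher and 10 lower and a median log2 fold change of 0.0145. Among the 9 other mitochondrial genes 7 were lower and 2 higher, as among the 9 other pumps and exchangers. The 8 other channel subunits had 5 higher and 3 lower, and the 4 endolysosomal channels 2 and 2. Whether the members differ from these genes was not tested.

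The precision behind these values was high. The coefficient of variation between mice of a genotype had a median of 3.30% over the members, from 1.505% for Atp2b2 to 10.6% for Itpr3. Counting reads at the depth of these libraries would by itself give a smaller spread in most genes: the variance between mice was a median of 2.15 times that of counting, and over 2 times in 27 of the 46 genes. The ratio was 13.5 for Itpr1, 7.46 for Calm2 and 6.93 for Hpca, and lowest for Orai2 at 0.773. Intervals cover the spread between these mice and not other sources of error.

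**Figure D4:**
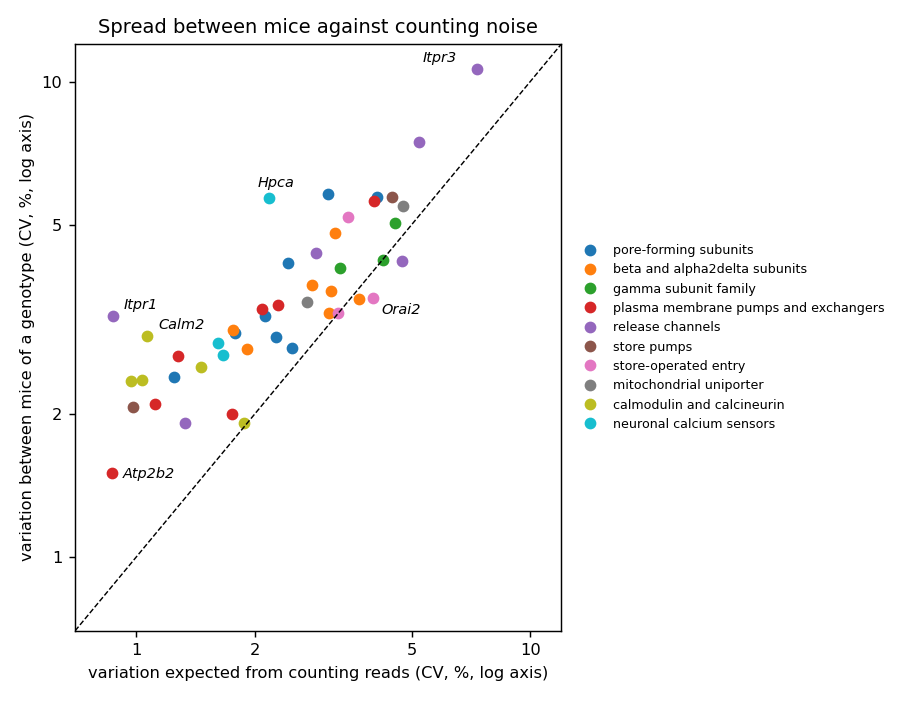
Coefficient of variation between mice of a genotype against the coefficient of variation expected from counting reads, both in percent on log axes, for the 46 genes coloured by role. The dashed line marks equality, and Itpr1 lies farthest above it, with a variance 13.5 times that of counting.

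The spread between mice was set against region markers. Itpr1 and Atp2a3 were compared with a score of 8 genes listed as Purkinje cell markers (mean log2 value), after taking out the mean of each genotype. The genes were Pcp2, Car8, Ppp1r17, Gdf10, Itpka, Slc9a3, Stk17b and Icmt, and whether each is confined to Purkinje cells was not tested. Over all 16 mice r was 0.878 and rho 0.785 for Itpr1 (permutation p 0.00053 and 0.00107, Benjamini-Hochberg adjusted 0.00318 and 0.00642), and r was 0.791 and rho 0.683 for Atp2a3 (permutation p 0.00295 and 0.00677, adjusted 0.00885 and 0.0203). For Itpr1, r was 0.862 within ki/ki mice and 0.885 within wt/wt mice (exact permutation p 0.00809 and 0.0103, n = 8 each), and for Atp2a3 0.690 and 0.831 (exact permutation p 0.0552 and 0.0231). In the same order, rho was 0.762 and 0.69 for Itpr1 (exact permutation p 0.0368 and 0.0694). For Atp2a3 rho was 0.491 and 0.643 (exact permutation p 0.222 and 0.0962).

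Ki/ki mouse 2 and wt/wt mice 5 and 6 had the lowest scores, -0.175 to -0.121 from the mean of their genotype against -0.039 or more in the rest. They also had the lowest Itpr1 values, 12208 to 12535 against 13068 to 13656, and the lowest Atp2a3 values, 430 to 488 against 489 to 533, although for Atp2a3 ki/ki mouse 2 was next to the others. Without the 2 mice farthest from the median of the score, r was 0.672 for Itpr1 and 0.362 for Atp2a3 (permutation p 0.0205 and 0.227, adjusted 0.123 and 0.340), so that neither relation held after adjustment without those 2 mice. Within the 13 mice other than these 3, chosen after the data had been seen, r was 0.329 and 0.109 (permutation p 0.297 and 0.729), in a narrower range of scores that by itself lowers r.

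Another 4 members were set against the list of a region in which they are known to be abundant, making 6 relations in all. For Atp2b2 and cerebellar granule cell markers, r was 0.493 and rho 0.532 over 16 mice (permutation p 0.0658 and 0.0427, Benjamini-Hochberg adjusted 0.132 and 0.0855). Without the 2 mice farthest from the median of the score, r was 0.411. In ki/ki mice alone r was 0.902 and in wt/wt mice alone 0.195 (exact permutation p 0.00565 and 0.642, n = 8 each), and the difference between these was not tested. For Cacna1g and thalamic markers r was 0.0420 and rho 0.0118, for Hpca and hippocampal markers -0.156 and -0.135, and for Vsnl1 and cortical markers 0.150 and 0.0647. The permutation p-values of r for these 3 were 0.880, 0.576 and 0.588, and those of rho 0.970, 0.628 and 0.824, all with adjusted values of 0.705 or above. Without the 2 farthest mice, r was 0.212, -0.408 and 0.119.

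**Figure D5:**
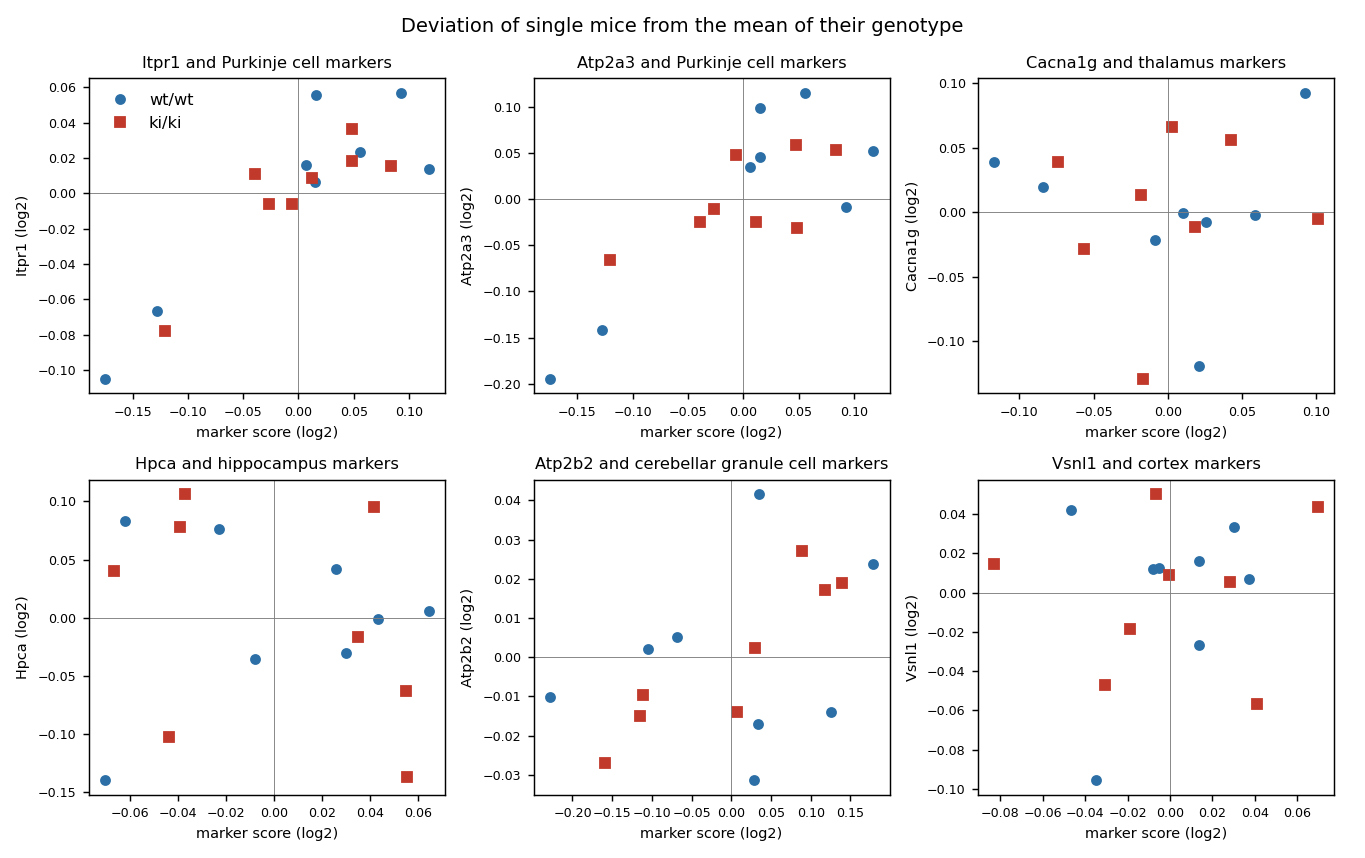
Log2 value of 6 genes against the score of a marker list (mean log2 value of the list), each point a mouse and both as deviations from the mean of its genotype. In the first 2 panels, for Itpr1 and Atp2a3 against Purkinje cell markers, the 3 mice with the lowest scores lie at the lower left.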

How the data were processed

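Total RNA of whole brain from 8 Tecpr2 ki/ki and 8 wt/wt mice was sequenced by the authors as stranded, ribosomal RNA-depleted libraries, trimmed with Trim Galore 0.6.10 and cutadapt 3.4, aligned to GRCm39 with STAR 2.7.10b, counted per gene with summarizeOverlaps and tested with DESeq2 1.40.2. What the authors deposited is a score, namely linear normalised values rounded to whole numbers, whose normalisation is not given in the sources used here. limma 3.58.1 (R 4.3.3, eBayes with trend and robust) was fitted to log2(value + 1) with genotype as the only term, over the 23244 genes whose values summed to more than 16 and were over 5 in 4 or more mice of either genotype. Fold changes of low values are understated by the pseudocount of 1.

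Depth, estimated from whole numbers that rounding skips or repeats, was 9.23 to 14.26 megareads in ki/ki mice and 10.09 to 15.39 in wt/wt mice. Over 120 pairs of mice the variance was 1.349 to 2.052 times counting noise. In simulated data 200 genes were changed, 100 of them by 0.1 on the log2 scale and the rest by more, with 1 dispersion for all genes. Of the 100 changed by 0.1, 59 reached an unadjusted limma p under 0.01 and 33 an adjusted p under 0.1. The larger changes were all found at the unadjusted level, and they make the adjusted level easier to pass. In the real data 31 of 23244 genes passed it, so the 33 may overstate what would be found there.

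Members and lists were chosen with earlier results of these data known. Given in full were members with an unadjusted p under 0.01 or without overlap and, in each role group, the largest fold change in each direction and the highest level per kilobase. Symbols (52017 of 55404 genes), exon lengths, positions and transcripts came from GENCODE for GRCm38, another build than that of the alignment. Single values and correlations were tested two-sided by permutation (100000 resamples, or all orders) with scipy 1.17.1. Alternatives were the pseudocount (0.1), the filter, equal totals, quantile normalization, a replicate block, no robust estimate, centring on pan-neuronal markers and leaving out each mouse. Some items are not reported here.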

Additional observations from a re-analysis of the deposited data

Results flagged for a closer look

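In 4 of 92 sets of 8 values (46 genes in each genotype), 1 mouse lay far from the other 7 by Dixon's criterion at its 95% limit, where chance gives about 1 in 20. Cacna1e was 6018 in wt/wt mouse 3, with the next value at 6353. Cacng8 was 535 in ki/ki mouse 5, with the next value at 485. Slc8a2 was 2504 in wt/wt mouse 4, with the next value at 2327. Itpr1 was 12433 in ki/ki mouse 2, with the next value at 13068, and this is 1 of the 3 mice with the lowest Purkinje cell score.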

How the results depend on the processing

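Each member had 23 alternatives. The counts of 0 members at an adjusted limma p under 0.1, and of 0 higher at an unadjusted p under 0.01, held under all of them, and the lowest adjusted p of any member was 0.121 (Atp2a2 without wt/wt mouse 2). The count of members lower at an unadjusted p under 0.01 was 4 without the filter and 4 with the replicate block, in both cases with Atp2b1 and Atp2b2 added, 0 relative to the pan-neuronal markers, and 1 to 4 when a mouse was left out: 1 without wt/wt mouse 8, and 4 without ki/ki mouse 3, wt/wt mouse 1 or wt/wt mouse 2. Among all genes the lower count at this level was 163 of 23244, and 264 of 41926 without the filter and 188 of 23244 with the block. It was 50 relative to the pan-neuronal markers and 131 to 189 when a mouse was left out. Without wt/wt mouse 6, 1 member was free of overlap, and with any other mouse left out 0 were. Fewer mice make an absence of overlap easier to reach, and the share of all genes in that setting is not given here. The median log2 fold change of the members was -0.00367 after quantile normalization and 0.0151 relative to the pan-neuronal markers, and lay between -0.0201 and -0.00577 when a mouse was left out (-0.00724 without wt/wt mouse 1). Of the 46 members, 23 kept their sign under every alternative, and 23 did not. Without the 2 mice farthest from the median of the Purkinje cell score, wt/wt mice 5 and 6, r was 0.672 for Itpr1 and 0.362 for Atp2a3, and without 3 mice 0.329 and 0.109. None of these 4 correlations passed 0.05 after adjustment, whereas both genes did over all 16 mice. The cause was not tested. At equal library totals over all 16 mice, r was 0.889 for Itpr1 and 0.789 for Atp2a3 (adjusted permutation p 0.00294 and 0.00849). There rho was 0.685 and 0.606 and missed 0.05 after adjustment (adjusted permutation p 0.0509 and 0.0661).

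Replicate numbers showed no clear pairing of the mice, though these values cannot exclude a weak one. Correlations of same-numbered mice lay between -0.048 and 0.154 (median 0.019, against -0.001 for other numbers). Of 16 mice, 4 correlated best with their own number. With the block, 46 in place of 31 of all genes passed an adjusted p of 0.1. Depth limited the genes of low value most.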
